A study of Mus musculus with 2 samples.

Results

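Among the quiescent muscle stem cells of uninjured muscle, 132 cells with the highest share of early-response transcripts were compared with the 132 cells with the lowest share. Cells of the QSC library were ranked by the share of their UMIs (unique molecular identifiers, 1 per captured transcript) that came from 7 genes, Fos, Fosb, Jun, Junb, Egr1, Ier2 and Atf3, and the ranking was divided into 3 groups of like size, called the high, middle and low group. The library held 766 deposited barcodes of 2416 in the whole series. Of these, 520 had at least 500 detected genes and 516 of them had at most 10% of UMIs from mitochondrially encoded genes. Taking out 104 barcodes with at least 5% of UMIs from 10 muscle fibre genes and 15 with at least 0.2% from 6 immune genes left 397 ranked cells with 916094 UMIs and a median of 2221 UMIs per cell. The cells were therefore selected on measured values, and the levels of the 7 genes in the groups describe that selection.

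The QSCs were sorted by fluorescence from uninjured tibialis anterior (TA) muscle of mice aged 8 weeks with the genotype Pax7 CreERT2/+ ;Rosa26 mTmG/+. They carry a tamoxifen-dependent Cre recombinase driven from the Pax7 gene and a membrane reporter that changes colour where Cre has acted, so the sort followed cells with a history of Pax7 expression. The second library, of activated satellite cells (ASCs), came from mice of the same genotype and age on day 1.5 after injury of the TA muscle with cardiotoxin (CTX). Each library was 1 pool of cells from several mice, so cells are not replicates, no test was run, and every interval below is a 95% interval for counting error only.

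Satellite cells lie on muscle fibres in a resting state until injury calls them into division, and Pax7 is the transcription factor that defines them. Early-response genes are transcribed within minutes of a growth factor, cytokine or stress signal, without new protein synthesis, and many of them encode AP-1 factors such as Fos and Jun, zinc-finger factors such as Egr1, or short-lived feedback inhibitors. Both libraries were made from muscle digested with enzymes before sorting, and how much of the response was present before digestion was not tested.

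The share of UMIs from the 7 genes ran over a continuous range. In the high group its lowest, median and highest values were 2.89%, 3.68% and 8.87%, in the middle group 1.63%, 2.20% and 2.88%, and in the low group 0%, 1.08% and 1.63%. A single ranked cell had none of the 7 genes among its 1926 UMIs, which allows a share of up to 0.156%. The last cell inside the high group stood at 2.886% and the first outside it at 2.877%, and the last inside the low group stood at 1.628% and the first outside at 1.629%. Counting intervals of 127 cells crossed the upper limit and those of 131 cells the lower one, whereas in all 132 high cells the interval lay above the lower limit and in all 132 low cells it lay below the upper limit. Depth was alike in the groups, with a median of 2223, 2216 and 2239 UMIs and of 977, 977 and 1008 genes in the high, middle and low group. The median mitochondrial share was 4.93%, 4.90% and 4.47% and the median share of fibre genes 1.63%, 1.57% and 1.57%. In the 104 fibre-high barcodes of the same library the 7 genes made up 0.110% of UMIs, and in its 15 immune barcodes 1.49%.

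**Figure D1:**
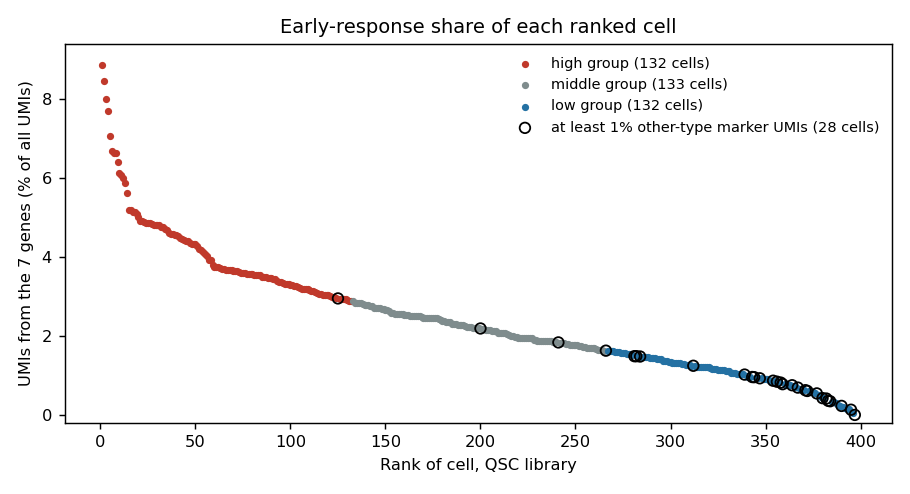
Share of UMIs from the 7 early-response genes (vertical axis, % of all UMIs) against the rank of each of the 397 cells of the QSC library (horizontal axis). Colours mark the groups and open circles the 28 cells with at least 1% of UMIs from markers of other cell types, of which 25 lie in the low group. The share falls from 8.87% to 0% with no gap between groups.

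The 7 genes did not contribute alike. Fos, a founding member of the AP-1 family, took 1.69% of all UMIs in the high group, 0.612% in the middle and 0.210% in the low group. Jun, its partner in AP-1, took 0.733%, 0.412% and 0.194%, and Junb took 0.816%, 0.499% and 0.261%. Egr1 took 0.249%, 0.181% and 0.105%. Fosb, a close relative of Fos, took 0.411%, 0.394% and 0.213%, so that its high and middle groups were close and the low group stood apart. Ier2 took 0.131%, 0.0688% and 0.0282%, and Atf3, an AP-1 partner of the stress response, 0.0322%, 0.0284% and 0.0152%.

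To give each gene a level in groups that it had not helped to choose, the cells were ranked again by the other 6 genes. Levels are from here on given as CPM, UMIs scaled to a total of 1000000, and ratios as log2 of the high over the low group. For the re-ranked groups the total covered all genes except those being read. Elsewhere, also for the ratios in the groups ranked by all 7, it covered all genes except the 7. Fos then stood at 14073, 7703 and 3614 CPM in the high, middle and low group, a log2 ratio of 1.96 (1.87 to 2.06), against 3.05 (2.94 to 3.17) in the groups it had helped to choose. Ier2 kept a log2 ratio of 2.06 (1.73 to 2.40), Jun 1.45 (1.33 to 1.57), Junb 1.20 (1.09 to 1.31), Egr1 1.05 (0.87 to 1.24) and Atf3 0.82 (0.31 to 1.35). Fosb had the smallest ratio, 0.54 (0.40 to 0.67), and its level in the middle group, 3873 CPM, was above that in the high group, 3743 CPM. With all ranked cells in use, all 7 were thus higher in the high group of a ranking by the other 6. Ranking by Fos, Junb and Ier2 gave a log2 ratio of 0.997 (0.92 to 1.07) for Fosb, Jun, Egr1 and Atf3 together, and ranking by these 4 genes gave 1.46 (1.39 to 1.53) for Fos, Junb and Ier2. These genes are counted in the same cells, so the ratios describe how the genes varied together and are not independent of each other.

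**Figure D2:**
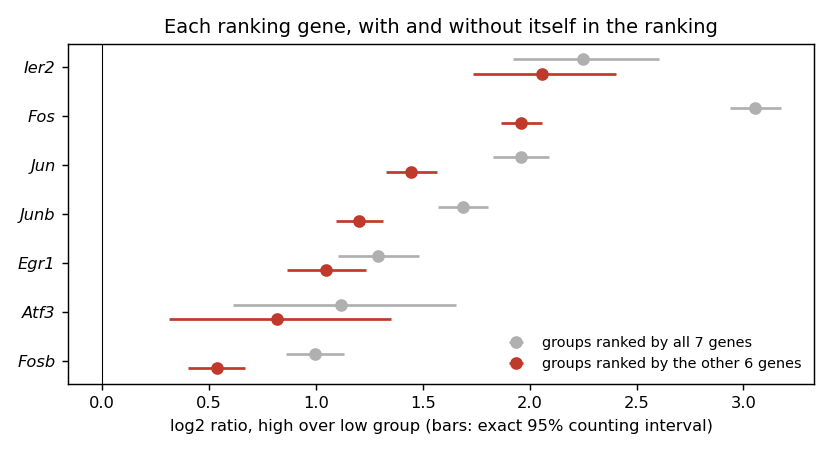
Log2 ratio of the high over the low group (horizontal axis) for each of the 7 genes, in groups ranked by all 7 genes (grey) and in groups ranked by the other 6 (red). Bars are exact 95% counting intervals. Grey ratios are scaled to all genes except the 7, red ones to all genes except the gene shown. In red, Ier2 and Fos lie near 2 and Fosb at 0.54, and all 7 lie above 0.

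The label of quiescent satellite cells was checked against marker genes before other genes were compared. A UMI of at least 1 of 6 satellite cell markers (Pax7, Myf5, Chodl, Chrdl2, Calcr and Fgfr4) was found in 131 of 132 high cells (99.2%, exact interval 95.9 to 99.98), 130 of 133 middle cells (97.7%) and 114 of 132 low cells (86.4%, 79.3 to 91.7). With each cell thinned to 1200 UMIs, which left out 2, 1 and 8 shallower cells, the shares were 93.8%, 92.4% and 80.6%. In fibre-high barcodes, which should lack these genes and had a median of 1635 UMIs, the share was 9.62% before thinning and 3.33% after it. Cells with at least 1% of UMIs from markers of fibroblasts, endothelial, mural, Schwann or tendon cells, called other-type cells here, numbered 1 in the high, 2 in the middle and 25 in the low group, and 18 of these 28 had no UMI of the 6 satellite cell markers. Summed over cells, the 10 fibroblast markers had 284, 391 and 2839 UMIs in the high, middle and low group, and the share per cell ran from 0% to 0.433%, from 0% to 3.71% and from 0% to 11.9%. The 10 endothelial markers had 34, 45 and 126 UMIs, with Emcn, Tie1 and Kdr at 0 in the high group, and the 10 mural markers 109, 97 and 161, with Cspg4, Higd1b, Myh11 and Pdgfrb at 0 in the high group. Schwann cell markers (130, 159 and 127 UMIs), tendon cell markers (3, 1 and 2), erythroid markers (40, 38 and 42) and the immune genes of the selection (6, 9 and 9) differed little. The low group was thus a mixture of satellite cells and cells bearing fibroblast and other markers, which goes against the label for those cells. The counts, lists and named genes below are therefore also given for 369 cells without the 28 other-type cells, ranked again and divided into groups of 123, which kept 107 of the 132 low cells and all 123 high cells of the new ranking among the former 132. In the 25 other-type cells of the low group the 7 genes made up 0.803% of UMIs. Fosb made up 0.0704% and Fos 0.243%, beside 0.213% and 0.210% in the whole low group. The rankings above by the other 6 or by part of the 7 genes used all ranked cells. The part of other-type cells in those ratios was not tested. In the groups ranked by all 7 genes, 6 of the 7 were at least 2-fold higher with all ranked cells and 5 without other-type cells.

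Over all other genes the groups were alike for most of what was measured. Of 3865 genes with at least 20 UMIs over both groups, 118 (3.05%) were at least 2-fold higher in the high group and 264 (6.83%) at least 2-fold lower, and the median log2 ratio was -0.03. Among 1533 genes with at least 100 CPM in the group where they were higher, leaving out mitochondrially encoded genes, 38 (2.48%) were at least 2-fold higher and 87 (5.68%) at least 2-fold lower. Without other-type cells the corresponding counts were 117 (3.37%) and 138 (3.97%) of 3475 genes, with a median of -0.02, and 35 (2.38%) and 26 (1.77%) of 1471 genes. Of the genes at least 2-fold higher over the floor of 100 CPM, 24 were shared by both sets of groups, 63.2% of the 38 and 68.6% of the 35. Of those at least 2-fold lower, 6 were shared, 6.90% of the 87 and 23.1% of the 26. Most of the higher genes were thus past 2-fold in both sets of groups, and most of the lower genes in the first set alone. Both sets share most of their cells, so the shared counts are not independent of each other.

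**Figure D3:**
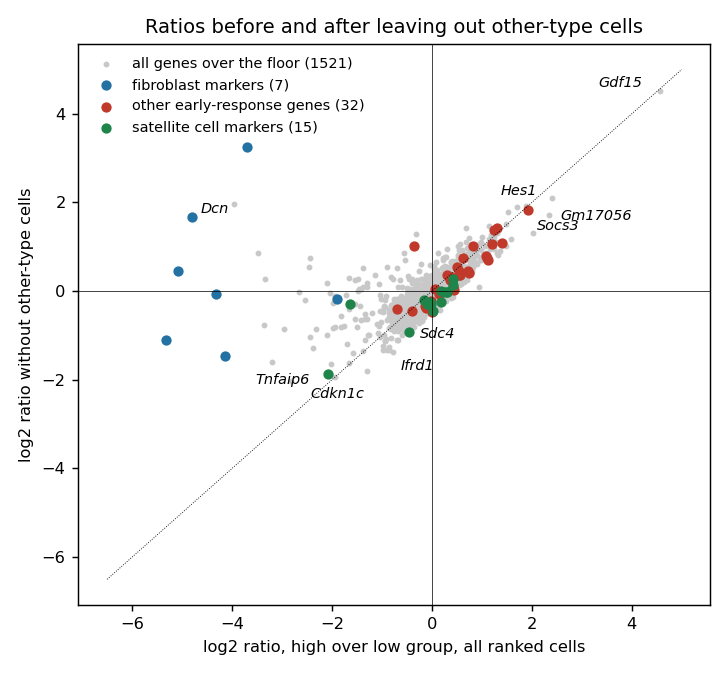
Log2 ratio of the high over the low group for 1521 of 1533 genes with at least 100 CPM in the higher group, with all ranked cells (horizontal axis) and without other-type cells (vertical axis, where 12 genes with at most 3 UMIs in both groups are left out and 4 plotted genes have 0 UMIs in 1 group, so that their height depends on the 0.5 added). The dotted line marks equal ratios. Fibroblast markers (blue) lie to the left with all cells, Socs3 and Hes1 lie near the line, and Klf2, an early-response gene (red), lies at -0.37 and 1.01.

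Of the genes higher in early-response high cells, Socs3, the feedback inhibitor of JAK-STAT signalling, had the most UMIs among the 15 with the largest ratios. It had 704, 367 and 203 UMIs in the high, middle and low group, or 2460, 1240 and 650 CPM, a log2 ratio of 1.92 (1.69 to 2.15), and 1.84 (1.61 to 2.07) without other-type cells. Per cell, its median was 18.8 UMIs per 10000 in the high group (lowest 0, highest 116), 8.19 in the middle (0 to 89.6) and 4.03 in the low group (0 to 39.4). The ranges overlapped from 0 upwards in all groups, and the median of the high group was the highest. With each cell thinned to 1200 UMIs, 82.3% of high cells (74.6 to 88.4) and 45.2% of low cells (36.2 to 54.3) had a Socs3 UMI, against 92.4% and 60.6% before thinning, and 4.44% (5.77% before) of fibre-high barcodes.

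Hes1, a repressor induced by Notch and other signals, had 259, 139 and 76 UMIs, or 905, 470 and 244 CPM, a log2 ratio of 1.89 (1.52 to 2.28), and 1.92 (1.54 to 2.32) without other-type cells. After thinning, 51.5% of high, 32.6% of middle and 21.8% of low cells had a Hes1 UMI, and 3.33% of fibre-high barcodes (65.9%, 45.1%, 32.6% and 4.81% before). The other Notch genes had smaller ratios. Of 8 measured genes of the pathway, Hes1 alone was past 2-fold, beside 3.05% of all genes at least 2-fold higher and 6.83% lower, and the median was 0.10. Without other-type cells it was again Hes1 alone, of 7, beside 3.37% and 3.97%, and the median was -0.0036. Heyl, another target of the pathway, had a log2 ratio of 0.08 (-0.64 to 0.81), Notch2 one of 0.38 (-0.11 to 0.86) and Notch3 one of -0.59 (-1.36 to 0.13). Without other-type cells Heyl had -0.0036 (-0.77 to 0.76), Notch2 0.15 (-0.34 to 0.64) and Notch3 -0.81 (-1.58 to -0.09). Ranking by Fosb, Jun, Egr1 and Atf3 alone took Hes1 to 0.86. Id1, which blocks the binding of basic helix-loop-helix factors to DNA, had 360, 216 and 125 CPM, a log2 ratio of 1.51 (0.98 to 2.10), and 1.78 (1.19 to 2.44) without other-type cells, or 0.95 when ranked by Fosb, Jun, Egr1 and Atf3 alone. Id2 stood at 1.07 (0.57 to 1.60) and Id3, another member, at 0.61 (0.46 to 0.77), which became 0.85 (0.36 to 1.37) and 0.30 (0.15 to 0.46). Of 6 measured genes of Id and E proteins, 3 had a ratio above 0, 2 were at least 2-fold higher (Id1 and Id2) and none lower, with a median of 0.24. Without other-type cells 4 were above 0, 1 was at least 2-fold higher (Id1) and none lower, with a median of 0.58. The shares of all genes are those given for the Notch genes.

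Dusp1, a phosphatase that switches off MAP kinases, had 258, 171 and 118 UMIs, or 902, 578 and 378 CPM, a log2 ratio of 1.25 (0.93 to 1.58), and 1.38 (1.04 to 1.73) without other-type cells. Zfp36, which promotes decay of mRNAs with AU-rich elements, had 905, 716 and 365 CPM and a log2 ratio of 1.31 (0.99 to 1.64), or 1.43 (1.09 to 1.80). Ier3 had a log2 ratio of 1.41 (0.94 to 1.92), or 1.09 (0.63 to 1.58), and fell under 2-fold with 2 groups in place of 3 (0.86), with cells thinned before ranking (0.92), with ranking by Fosb, Jun, Egr1 and Atf3 (0.99) and without the deepest 5% of cells (0.97). Tob1, an antiproliferative regulator related to Btg2, had 1.39 (0.86 to 1.96), or 1.06 (0.55 to 1.62), and 0.94 with 2 groups in place of 3 and 0.87 among cells with at least 1000 genes. For each of these 4 genes the middle group lay between the others in both sets of groups, as it did for Socs3, Hes1 and Id1.

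**Figure D4:**
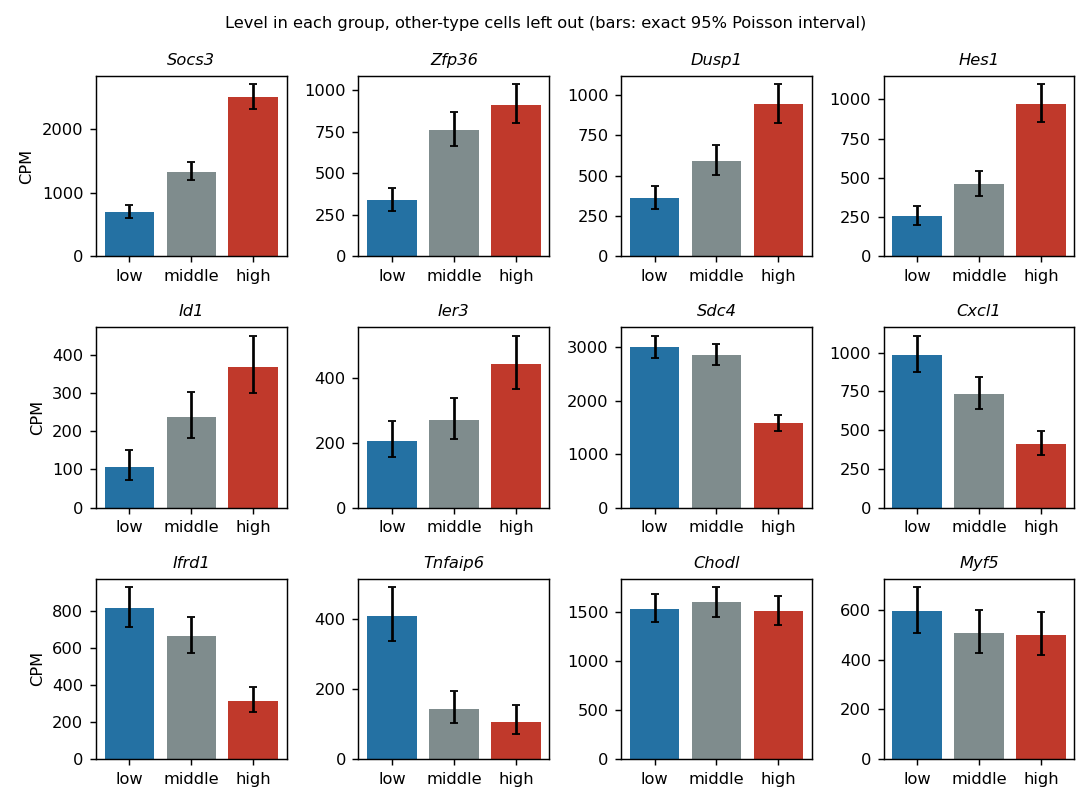
UMIs CPM in the low, middle and high group without other-type cells (123 cells each) for 12 genes, with a vertical axis of its own for each gene, starting at 0. Bars are exact 95% Poisson intervals. Socs3, Zfp36, Dusp1, Hes1, Id1 and Ier3 step up from low to high, and Cxcl1, Ifrd1 and Tnfaip6 step down. Sdc4 is close in the low and middle groups and lower in the high group, and the intervals of Chodl and Myf5 overlap.

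A wider list of 42 early-response genes other than the 7 was then examined. Of these, 40 had a feature in the files and 33 reached 20 UMIs over both groups. In the high group 8 of the 33 were at least 2-fold higher (Btg2, Dusp1, Egr2, Ier3, Ppp1r15a, Socs3, Zfp36 and Zfp36l2) and none lower, beside 3.05% and 6.83% of all genes, and the median log2 ratio of the list was 0.45 beside -0.03. Without other-type cells 7 were at least 2-fold higher (Dusp1, Egr2, Ier3, Irf1, Klf2, Socs3 and Zfp36) and none lower, beside 3.37% and 3.97%, with a median of 0.36. Btg2 had 1751, 1636 and 808 CPM, with high and middle groups close, and a log2 ratio of 1.12 (0.90 to 1.34), or 0.71 (0.49 to 0.92) without other-type cells. Ppp1r15a, which restores translation after stress, had 1.09 (0.82 to 1.36), or 0.78 (0.53 to 1.05). Klf2, which endothelial cells also express, turned in sign. Its log2 ratio was -0.37 (-0.81 to 0.07) with all cells, where 18 of its 107 UMIs in the low group came from 1 cell, and 1.01 (0.38 to 1.68) without other-type cells.

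Not every early-response gene followed the ranking. Cebpb stood at 3296, 3603 and 1977 CPM, highest in the middle group, with a log2 ratio of 0.74 (0.59 to 0.89), or 0.40 (0.26 to 0.55). Klf4, a zinc-finger factor, had 0.39 (0.15 to 0.63) and the nuclear receptor gene Nr4a1 0.72 (0.44 to 1.02), or 0.33 (0.08 to 0.58) and 0.45 (0.15 to 0.74) without other-type cells. Klf9 had 0.06 (-0.18 to 0.29), the NF-kappaB inhibitor gene Nfkbia -0.11 (-0.35 to 0.13) and Gadd45g -0.69 (-1.20 to -0.21), and without other-type cells these were 0.04 (-0.20 to 0.28), -0.39 (-0.63 to -0.14) and -0.40 (-0.93 to 0.10). The AP-1 genes outside the ranking had a median of 0.13, or -0.15 without other-type cells. Jund had 4536, 5576 and 3954 CPM, again highest in the middle group, with a log2 ratio of 0.20 (0.08 to 0.31), or -0.02 (-0.14 to 0.09). Maff had 0.13 (-0.21 to 0.46) and Fosl2 -0.58 (-1.20 to 0.01), or -0.15 (-0.49 to 0.18) and -0.75 (-1.41 to -0.13). Of the 8 measured, Atf2 alone was past 2-fold in both sets, at 19 against 7 UMIs and 17 against 7. Of all genes 3.05% were at least 2-fold higher and 6.83% lower, or 3.37% and 3.97% without other-type cells.

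The promoters of the early-response genes were searched for the motifs of factors that drive early-response genes. The windows run from 250 bases before to 50 bases after each RefSeq start site. Of the 33 measured genes, 26 had such a window. The cyclic AMP response element, TGACGTCA, was found in 3 of the 26 (Btg2, Dusp1 and Ppp1r15a) and in 1.79% of all 32851 windows, or at least 1 window of 2.03% of 27025 genes. The CArG box, bound by serum response factor, was found in 2 of the 26 (Egr2 and Zfp36) and in 1.63% of all windows, or 1.81% of genes. The AP-1 motif TGANTCA was found in 3 of the 26 (Csrnp1, Klf9 and Zfp36l1) and in 7.81% of all windows, or 8.97% of genes, and the STAT motif TTCNNNGAA in 5 of the 26 (Csrnp1, Irf1, Klf9, Socs3 and Zfp36) and in 8.30% of all windows, or 9.55% of genes. Both strands were searched, and a match is a description of the letters only. The cyclic AMP response elements are shown because all 3 genes were at least 2-fold higher in the high group with all ranked cells, of which Dusp1 remained past 2-fold without other-type cells, and the STAT match because Socs3 had the largest ratio of the list. Sequences are from RefSeq, build GRCm38.p6, on the minus strand and written 5′ to 3′, with the motif in capitals, and leave out annotated exons. They lie at chr17:26508552-26508671 for Dusp1, chr1:134079258-134079377 for Btg2, chr7:45526269-45526329 for Ppp1r15a and chr11:117969457-117969576 for Socs3. In GENCODE the Dusp1 and Socs3 windows fall in an intron of a longer transcript of the same gene, and those of Btg2 and Ppp1r15a lie outside annotated genes.
Dusp1: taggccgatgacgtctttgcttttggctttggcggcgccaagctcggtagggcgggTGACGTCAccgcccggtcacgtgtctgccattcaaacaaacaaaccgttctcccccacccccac
Btg2: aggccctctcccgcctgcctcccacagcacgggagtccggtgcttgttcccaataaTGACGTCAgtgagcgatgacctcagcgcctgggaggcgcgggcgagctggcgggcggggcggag
Ppp1r15a: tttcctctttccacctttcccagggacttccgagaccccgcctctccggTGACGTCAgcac
Socs3: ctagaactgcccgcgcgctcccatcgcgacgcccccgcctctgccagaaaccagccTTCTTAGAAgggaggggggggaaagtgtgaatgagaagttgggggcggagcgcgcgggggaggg
The first base of the motif lay 143 bases before the start site in Dusp1, 166 in Btg2, 12 in Ppp1r15a and 154 in Socs3. Of the genes of the ranking, Egr1 was not searched. Windows of Fos, Fosb, Jun, Junb and Atf3 were searched, and none of the 4 motifs was found in them. Only exact matches inside the windows were sought, so variant or more distant sites would not have been found.

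The 15 genes with the largest ratios over the floor of 100 CPM held, besides those described, 3 without a named product. Gm26802 (lincRNA, chr7:19298260-19300770, minus strand, GRCm38) lies 1925 bases beyond the end of Fosb on the same strand and had 55, 19 and 11 UMIs, a log2 ratio of 2.40 (1.50 to 3.53), or 2.10 (1.25 to 3.14) without other-type cells. Gm17056 (annotated as antisense, chr12:40198656-40201105, plus strand) had 123, 93 and 26 UMIs, a log2 ratio of 2.35 (1.75 to 3.04), or 1.72 (1.20 to 2.29). In the high group 53 of 132 cells held it, and 18 of 132 in the low group. Gm12216 (protein coding, chr11:53783418-53859256, minus strand) had 43, 24 and 14 UMIs, with a ratio of 1.71 (0.85 to 2.73), or 1.90 (0.96 to 3.06). It was under 2-fold when cells were ranked after thinning (0.81), thinned before ranking and summing (0.82), ranked by the mean log value (0.71) or by Fosb, Jun, Egr1 and Atf3 (0.89), divided into 2 groups (0.85) or limited to 5% mitochondrial UMIs (0.92). The neurotrophin gene Ntf3 had 47, 35 and 18 UMIs, with a ratio of 1.49 (0.70 to 2.38), or 1.52 (0.69 to 2.47). Atg3 had a ratio of 1.58, Bex3 of 1.48, Dld of 1.36 and Rlim of 1.32, on at most 35 UMIs in the high group, and without other-type cells these were 1.17, 1.02, 0.90 and 0.83. Ranking by Fosb, Jun, Egr1 and Atf3 took Atg3 to 0.61, Bex3 to 0.60 and Dld to 0.97, and ranking by the mean log value took Bex3 to 0.75. Dld had 0.55 with cells thinned before ranking and summing, 0.78 with ranking by Fos, Junb and Ier2 and 0.81 with 2 groups. Rlim had 0.81 without the deepest 5% of cells and 0.87 among cells with at least 1000 genes. Among cells with a satellite cell UMI Dld had 0.92 and Rlim 0.97. Gdf15, a stress-induced cytokine, had the largest ratio, 4.56 (2.54 to 10.47), from 32 UMIs in the high, 5 in the middle and 1 in the low group. Of the 32 UMIs, spread over 12 cells, 18 came from 1 cell, and the ratio was 3.40 without that cell. It turned in sign when cells were ranked by the mean log value of the 7 genes (-1.12) or by Fosb, Jun, Egr1 and Atf3 alone (-0.93). For all 15 genes the middle group lay between the others.

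Of 13 measured heat shock genes, Hspa1a, an inducible chaperone, was the sole one past 2-fold in both sets, beside 3.05% of all genes higher and 6.83% lower, and 3.37% and 3.97% without other-type cells. It had 121, 85 and 32 UMIs, a log2 ratio of 2.03 (1.47 to 2.65), or 1.32 (0.82 to 1.85) without other-type cells. It was under 2-fold when cells were ranked by the mean log value (0.86) or by Fosb, Jun, Egr1 and Atf3 (0.805). In the high group 38 of 132 cells held it, and 19 of its UMIs came from 1 cell. Hspa1a and Hspa1b are near-identical copies, Hspa1b had 2 UMIs in each of the outer groups, and the division of reads between them is uncertain. Hspb1 had 0.78 (0.34 to 1.23), or 0.66 (0.22 to 1.11), the constitutive chaperone gene Hspa8 0.08 (-0.07 to 0.23), or -0.18 (-0.33 to -0.02), and Hsp90ab1 -0.06 (-0.27 to 0.14), or -0.15 (-0.36 to 0.06). The median of the list was -0.06, or -0.21 without other-type cells.

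Of the 15 genes with the lowest ratios, from -6.28 to -4.14, 7 were in the list of fibroblast markers. Dcn, a matrix proteoglycan, had 19, 39 and 593 UMIs in the high, middle and low group, Col1a2 9, 29 and 412, Clec3b 4, 6 and 166, and Col1a1 18, 26 and 354. Myoc, which encodes the secreted protein myocilin, had no UMI in the high group and 42 in the low group, at least 12.8-fold more in the low group with the 0 set to 3 counts, and Ifi205 had 0 and 40, at least 12.2-fold more. All 9 measured fibroblast markers were at least 2-fold lower, beside 6.83% of all genes, with a median of -4.42. These values move with the 25 other-type cells of the low group. The fibroblast markers are among the genes that defined other-type cells, so the fall of their UMIs without those cells follows from that choice. Myoc and Ifi205 are not among the defining genes. Without the other-type cells Dcn had 16 UMIs in the high and 5 in the low group, Col1a2 8 and 19, and Clec3b 4 and 3, and both Myoc and Ifi205 were at or below 3 UMIs in each of the outer groups.

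The genes lowest in early-response high cells were also read without other-type cells, and those named here were chosen after their values were seen. Tnfaip6, a hyaluronan-binding protein of inflammation, had 28, 39 and 115 UMIs in the high, middle and low group, or 106, 142 and 408 CPM, a log2 ratio of -1.93 (-2.60 to -1.34), beside -1.94 (-2.61 to -1.36) with all cells. Of the 115, 30 came from 1 cell, and the ratio without that cell was -1.50. Cxcl1, a neutrophil chemokine, had 411, 732 and 986 CPM, a log2 ratio of -1.26 (-1.60 to -0.94), beside -0.86 (-1.19 to -0.55). Ifrd1, a transcriptional co-regulator, had 317, 666 and 819 CPM, a log2 ratio of -1.37 (-1.75 to -1.01), beside -0.78 (-1.14 to -0.43). Ifrd1 (chr12:40201567-40248504, minus strand) ends 461 bases from Gm17056, which was higher in the high group and is annotated on the other strand. Skil, a brake on TGF-beta signalling, had -1.32 (-1.83 to -0.85), the chromatin regulator gene Arid5b -1.32 (-1.89 to -0.81), the tubulin gene Tubb6 -1.81 (-2.65 to -1.09) and Ankrd1, a gene of the stretch and injury response, -2.01 (-3.40 to -0.95) on 8, 26 and 36 UMIs. With all ranked cells the last 4 had -0.89, -0.97, -1.29 and -1.02. In all of these 7 genes the middle group lay between the others without other-type cells, whereas with all ranked cells Ifrd1, Skil, Tubb6 and Ankrd1 were highest in the middle group.

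Satellite cell markers were next compared. Of 18 measured, none was at least 2-fold higher and 2 were at least 2-fold lower (Cd34 and Cdkn1c), beside 3.05% and 6.83% of all genes, with a median of 0.18. Without other-type cells 0 were higher and 1 was lower (Cdkn1c), beside 3.37% and 3.97%, with a median of -0.21. These counts past 2-fold are near the shares of all genes. Smaller differences leaned lower without other-type cells, where 4 of the 18 ratios were above 0, 4 intervals lay below 0 and none above. With all ranked cells 11 were above 0, 3 intervals lay below 0 and 1 above. Summed over the list, the log2 ratio was -0.35 (-0.43 to -0.26) without other-type cells and -0.06 (-0.14 to 0.02) with all ranked cells. Pax7 had 66, 60 and 58 UMIs, a log2 ratio of 0.31 (-0.22 to 0.85), or -0.02 (-0.55 to 0.50) without other-type cells, when its UMIs were 61, 53 and 66. Of its 66 UMIs in the high group 14 came from 1 cell, and the ratio was -0.031 without that cell. Chodl, a surface lectin of quiescent satellite cells, had 0.31 (0.11 to 0.51), or -0.02 (-0.22 to 0.18), and Myf5, a myogenic factor held ready in quiescence, 0.19 (-0.16 to 0.53), or -0.25 (-0.59 to 0.09). Cd34, which endothelial and stromal cells also carry, had -1.64 (-2.42 to -0.96), or -0.30 (-1.25 to 0.61). Sdc4, a heparan sulphate proteoglycan used as a satellite cell marker, stood out with 1789, 2697 and 2464 CPM and a log2 ratio of -0.46 (-0.63 to -0.30). Without other-type cells it stood at 1580, 2858 and 3004 CPM, a log2 ratio of -0.93 (-1.10 to -0.76), with the middle and low groups close and the high group below both. Per cell its median was 10.6, 19.7 and 16.3 UMIs per 10000, and its ranges overlapped from 0 upwards. Cdkn1c, an inhibitor of cyclin-dependent kinases, had 14, 9 and 66 UMIs, of which 49 came from 1 low cell. The same cell held all 28 Myog UMIs of the low group, where Myog marks committed myogenic cells, and without it the log2 ratio of Cdkn1c was -0.15, or 1.04 once other-type cells were left out as well.

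The remaining lists were read beside all genes, of which 3.05% were at least 2-fold higher and 6.83% lower (3.37% and 3.97% without other-type cells). Of 10 measured genes of polyamine metabolism and of Eif5a modification, the subject of the study, none was past 2-fold in either direction and the median was -0.13, or -0.15 without other-type cells. Eif5a, the translation factor that carries the spermidine-derived hypusine, had 538, 727 and 699 CPM and a log2 ratio of -0.37 (-0.68 to -0.07), or -0.53 (-0.85 to -0.22). Odc1, the first enzyme of polyamine synthesis, had 14 and 24 UMIs in the outer groups, a log2 ratio of -0.63 (-1.72 to 0.36), or -0.996 (-2.15 to 0.01). Of 21 translation factors none was past 2-fold and the median was 0.08, or 0.00. Of 14 ribosome biogenesis genes 1 was higher (Pes1) and the median was -0.09, or -0.26. Of 12 glucocorticoid-responsive genes none was past 2-fold and the median was 0.03 in both sets. Within that list the metallothionein Mt1 stood at 10362, 14536 and 12491 CPM, a log2 ratio of -0.27 (-0.34 to -0.20), or -0.59 (-0.66 to -0.52), and Sgk1 at 0.86 (0.38 to 1.36), or 0.81 (0.33 to 1.32). Of 8 chemokines and related genes 4 were at least 2-fold lower (Ccl11, Cxcl12, Cxcl14 and Tnfaip6) with a median of -1.17, and without other-type cells 2 of 6 were (Cxcl1 and Tnfaip6) with a median of -0.56. Of 6 measured activation genes none was higher, 1 was lower (Myog, in the single cell named above) and the median was 0.03, or -0.20. Myod1, the factor of activation, had 48, 38 and 41 UMIs, with a ratio of 0.35 (-0.28 to 0.99), or 0.06 (-0.56 to 0.67). The 13 mitochondrially encoded genes had a median of 0.21, or 0.13, and 5 inhibitors of ERK signalling one of -0.02, or -0.18 over 4, with none past 2-fold. Of 6 nuclear noncoding RNAs, with a median of 0.17, or 0.069, Kcnq1ot1 was at least 2-fold lower in both sets and H19 at least 2-fold higher with all ranked cells alone.

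**Figure D5:**
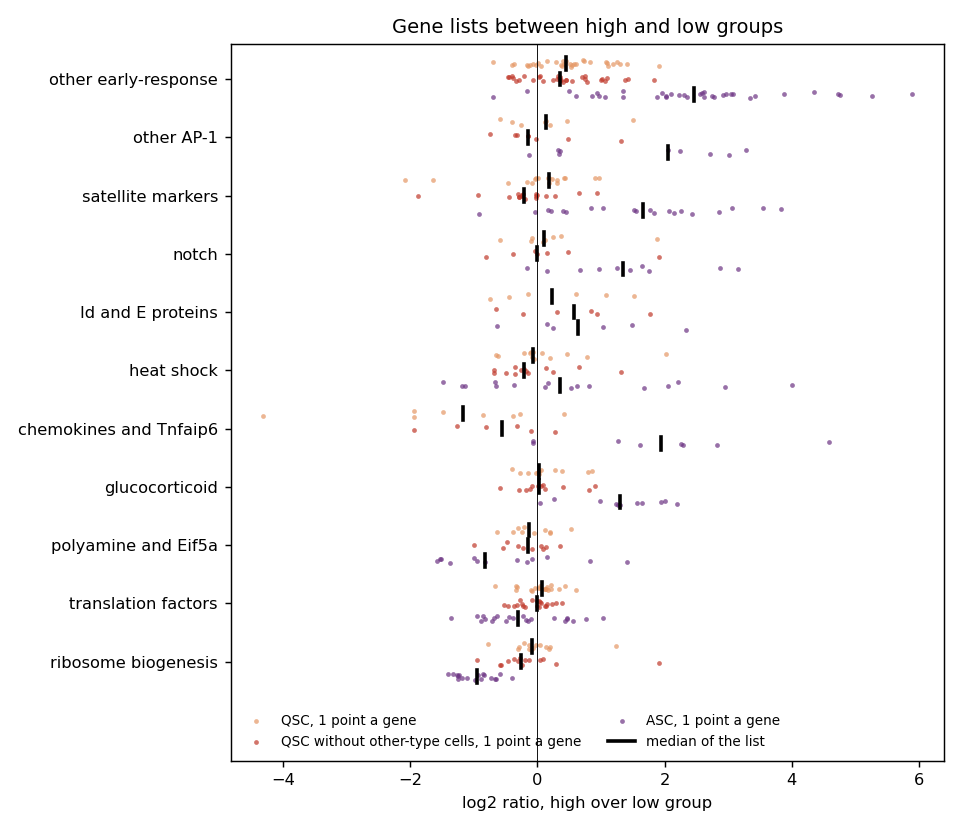
Log2 ratio of the high over the low group (horizontal axis) for each measured gene (1 point) of 11 lists, in QSCs with all ranked cells, in QSCs without other-type cells and in ASCs. Black strokes are list medians. For the other early-response genes the medians are 0.45, 0.36 and 2.46, and for the satellite cell markers 0.18, -0.21 and 1.66.

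The same filters and ranking were applied to the ASC library, which had no part in choosing the cells, to set its values beside those of the QSCs. Of 1650 barcodes, 423 were ranked, and the 7 genes made up 0.296% of their UMIs beside 2.40% in the ranked QSCs. The groups of 141 cells had median shares of 1.07%, 0.196% and 0.0442%. They also differed in depth, with a median of 5222, 10195 and 14709 UMIs and of 1749, 2679 and 3027 genes from high to low, and 2 low cells had at least 1% of UMIs from erythroid markers, up to 81.5%. The part of depth and of these cells in the ASC values was not tested. Over all genes with at least 20 UMIs, 1251 of 8292 (15.1%) were at least 2-fold higher in the high group and 857 (10.3%) at least 2-fold lower, so the background of 2-fold differences was larger than among QSCs. Of 36 measured early-response genes other than the 7, 29 were at least 2-fold higher and none lower, with a median of 2.46 beside 0.02 for all genes. Socs3 had 1083, 178 and 28.1 CPM, a log2 ratio of 5.26 (4.91 to 5.64), and Btg2 one of 4.73 (4.40 to 5.10). Egr2, Socs3, Nr4a1 and Btg2 had the 4 highest ratios over the floor. Gm17056 was again higher, with 64 against 16 UMIs, and Hes1 had 2.88 (2.50 to 3.29).

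Tnfaip6, Cxcl1, Skil and Sdc4 had a positive ratio in the ASC library and a negative one in QSCs. A UMI of the 6 satellite cell markers was found in 89.4%, 80.1% and 61.7% of the cells of the high, middle and low group. Satellite cell markers were at least 2-fold higher in the high group for 13 of 20 genes, beside 15.1% of all genes. None was at least 2-fold lower, beside 10.3%, and the median of the list was 1.66. Pax7 had 69.2 against 14.3 CPM and Chodl 352 against 24.5. Tnfaip6 had a log2 ratio of 2.83 (2.12 to 3.65), Cxcl1 1.62 (1.31 to 1.93), Skil 2.23 (1.75 to 2.73) and Sdc4 0.84 (0.70 to 0.98), all negative in QSCs. Of 18 ribosome biogenesis genes 8 were at least 2-fold lower and none higher, beside 10.3% and 15.1% of all genes, with a median of -0.95. Eif5a had 987 against 2546 CPM, a log2 ratio of -1.37 (-1.47 to -1.27). The 5 lowest genes were Hba-a1, Hbb-bs, Hba-a2, Hbb-bt (haemoglobin genes) and the slow troponin gene Tnni1, for which 1 low cell held 145 of 413 UMIs. The difference between the libraries in these ratios was not tested, since each library is 1 sample.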

How the data were processed

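Libraries were made with 10x Genomics droplet chemistry (single cell 3′ v2). Per the file headers, the deposited values are whole-number UMI counts per gene and barcode, made by the authors with Cell Ranger 6.0.2, whereas the submitters' processing notes name version 7.1.0 and the build mm10. The handling of strand is not given in the sources used here. Jun, Junb, Zfp36, Dusp1, Ppp1r15a, Cebpb, Jund, Hspa1a, Gm17056, Ifrd1 and Cdkn1c overlap other counted genes, mostly on the other strand, so their counts are less certain. Dusp1 and Ifrd1 each overlap a counted gene on their own strand. No doublets were removed. The libraries held 1346020 (QSC) and 9059807 (ASC) UMIs, and 4 barcodes occurred in both, 1 of them among the ranked cells of both.

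UMIs were summed over the cells of each group and scaled to 1000000 UMIs of genes other than the 7 (CPM). In the groups re-ranked without the genes being read, only those genes were left out of the total. Ratios are log2 with 0.5 added to each count, with exact conditional binomial intervals. Levels carry exact Poisson intervals and shares exact Clopper-Pearson intervals, all at 95% and all for counting error only. The ratio and its interval were tested on simulated counts, drawn for each group as a sum with Poisson error. The simulation held no variation between cells and no ranking step, so it covers counting error only. A count of 0 was set to 3 for a bound, and no ratio was given where both groups had at most 3 UMIs. List medians use genes with at least 20 UMIs over both groups. Named genes are the 7, members of 4 lists (other early-response, other AP-1, heat shock and satellite cell genes) with at least 100 CPM in the higher group, the 15 highest and 15 lowest ratios over that floor (5 each in ASCs), and up to 4 examples from the other lists. One gene that the rule names in ASCs is not reported here. Genes outside this rule, namely those lowest without other-type cells (Ifrd1, Skil, Arid5b, Tubb6 and Ankrd1) and Atf2, Hspa1b, Odc1, Sgk1, Myog, Pes1, H19 and Kcnq1ot1, were chosen after their values were seen. The members and lists were chosen with earlier results of these data known. Coordinates are from GENCODE M21 (GRCm38), which held 32235 of the 32285 feature IDs. Software was Python 3.11.15, numpy 2.4.6, scipy 1.17.1, pandas 2.3.3 and matplotlib 3.10.9.

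Alternatives were division of the ranking into 4 or 2 groups, thinning to 1200 UMIs (11 cells left out), ranking by the mean log value or by part of the 7 genes, other scalings, stricter cell filters, removal of other-type, marker-free or the deepest 5% of cells, other floors, and leaving out the cell with most UMIs of a gene, which was added after seeing the data.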

Additional observations from a re-analysis of the deposited data

How the results depend on the processing

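No paired analysis was possible because each group had 1 library and no test was run. The count of genes at least 2-fold higher in the high group, 38, was 14 with 2 groups in place of 3, 77 with cells thinned before ranking and summing, 24 with ranking by Fosb, Jun, Egr1 and Atf3, 64 without mitochondrial and ribosomal protein genes in the scaling, 64 at a limit of 5% mitochondrial UMIs, 65 at 1000 genes, and 114 and 14 at floors of 50 and 200 CPM. The count at least 2-fold lower, 87, was 132 with 4 groups, 57 with 2, 131 without mitochondrial and ribosomal protein genes in the scaling, 177 at 5% mitochondrial UMIs, 26 without other-type cells, 45 with cells that had a satellite cell UMI, 48 without the deepest 5% of cells, and 258 and 40 at those floors. Higher genes made up 30.4% of both counts together and 57.4% without other-type cells. The cause of these shifts was not tested. A limit of 1% mitochondrial UMIs left 1 cell and was not run.

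The median of other early-response genes stayed between 0.29 and 0.64 in 17 alternatives. The heat shock median became -0.21 without other-type cells, and the satellite cell median -0.21 without them and -0.094 with cells that had a satellite cell UMI. Gdf15 turned to -1.12 with ranking by the mean log value and to -0.93 with ranking by Fosb, Jun, Egr1 and Atf3. Without other-type cells Dcn turned to 1.67 and Clec3b to 0.45, both of them among the markers that defined those cells. In that setting 10 of the 15 lowest genes had at most 3 UMIs in each outer group and no ratio. Of the 15 highest genes, 231 of 255 alternative ratios lay within the counting interval, with Socs3 between 1.18 and 2.04 and Hes1 between 0.86 and 2.07. This count is a weak measure of stability, since the alternatives draw on the same library and intervals are wide for genes with few UMIs. Dld, for example, fell to 0.55 and remained within its interval of 0.38 to 2.50. Depth limits the genes at the floor, where Gdf15 rested on 32 UMIs at 112 CPM.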
